A study of Mus musculus with 2 samples.

Results

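The genes followed here are the p53 family of transcription factors (Trp53, Trp63 and Trp73), the p53 inhibitors Mdm2 and Mdm4, the apoptosis genes Bax, Bbc3 and Pmaip1, and the growth arrest and stress genes Ccng1 and Sesn2. A peak of H3K4me3 (histone H3 trimethylated on lysine 4) was assigned to a gene if at least 1 bp of it fell on the RefSeq gene or within 1 kb of its ends. Of the 19265 peaks in the list, 12 met this rule, and they lay at 9 of the 10 genes. The study sequenced 1 H3K4me3 library and 1 input library (chromatin that was not pulled down) from adult mouse neural progenitor cells in N2 medium with EGF and bFGF, growth factors that keep such cells dividing. The labels state that the cells were untreated, give no strain, genotype, sex or age, and they mark the H3K4me3 library "con" while the file header names it after EGF. With no replicate, no value has an error between cultures and no test between conditions was possible. The depth after filtering was 18156769 tags for H3K4me3 and 17831241 for the input. Of the listed progenitor markers, such as Sox2 and Nes, 10 of 10 had a peak, and the astrocyte and microglia markers had one at 0 of 4 genes each. Neuronal markers had a peak at 3 of 6 genes (fold enrichment 13.0 to 22.6), oligodendrocyte markers at 1 of 4 (10.9) and endothelial markers at 2 of 4 (5.75 and 8.68), all below the progenitor range of 31.8 to 55.0.

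H3K4me3 lies over the start of active genes and of genes held ready for activation. A peak over a start thus reports a marked promoter and not the amount of RNA or protein. The protein p53 is made in most cells and is kept low by Mdm2, a ubiquitin ligase that sends it for destruction, and by the related Mdm4. When DNA is damaged, p53 is released from them and binds a paired DNA element at genes for cell cycle arrest and apoptosis, and also at Mdm2 itself, which closes a feedback loop. Its relatives p63 and p73 bind similar elements. The p63 protein is best known from stratified epithelia, and p73 is needed for the upkeep of neural stem cells and for ciliated cells of the brain ventricles.

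A called peak was present at 9 of the 10 genes (90%), where 61.5% of all 21887 protein-coding genes had one. The exact binomial 95% interval was 55.5 to 99.7, but it treats these chosen genes as random draws, which they were not. Trp63 was the gene without a peak. The strongest peak of the 9 marked genes, taken as the one with the highest fold enrichment over input in the authors' list, had a median fold enrichment of 46.39 with a range of 20.97 to 52.80. The low end rests on counting for Trp73 a peak at its neighbour Wrap73 (37.93); with no window beside the gene, with the summit in the window, or with only peaks at no other coding gene, Trp73 kept a peak of 12.3. Over all 13462 marked coding genes the median was 39.06, with quartiles of 29.2 and 46.3, and 7 of the 9 genes lay above that median. In bulk chromatin, a lower level of the mark in every cell and the mark in fewer cells cannot be told apart.

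**Figure D1:**
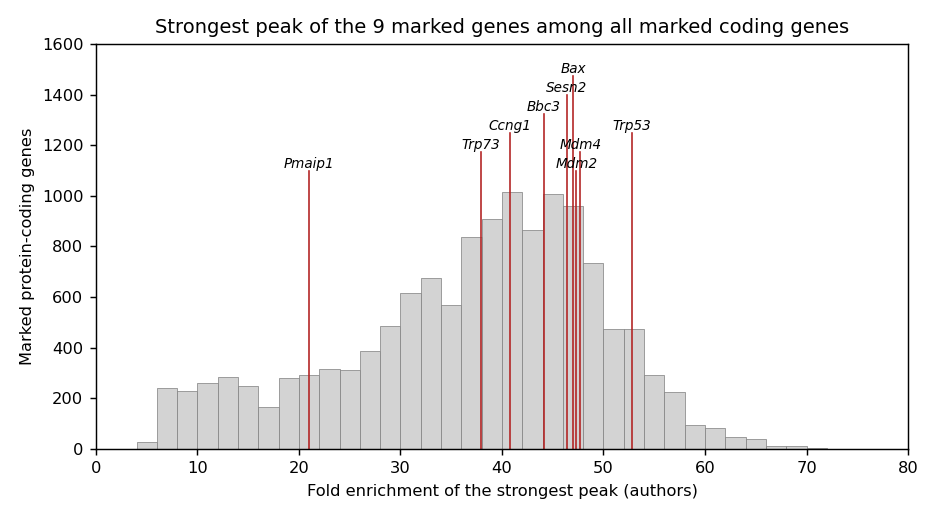
Histogram of the authors' fold enrichment over input (horizontal axis) of the strongest peak of each marked protein-coding gene (vertical axis, number of genes), with a red line for each of the 9 marked genes of the p53 family and targets. Trp53 stood highest at 52.80 and Pmaip1 lowest at 20.97, with 4 genes between 46.39 and 47.73; the Trp73 line is the peak at Wrap73, while the peak over its own start had 12.3. Line heights only separate the names.

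The family itself was split. Trp53 lay under 1 peak of 4931 bp with 947 tags (mm10 chromosome 11, 69577758 to 69582688), a fold enrichment of 52.80 and 192 tags per kb (exact 95% Poisson interval 180 to 205). This fold enrichment was higher than at 91.9% of marked coding genes, and the width was above that of 95.7% of them. The peak covered the listed Trp53 start and reached 2329 bp into the gene, but its summit lay 1371 bp before that start. Only 1.74% of the coding start sites under a peak had the summit more than 1 kb upstream. The summit fell inside Wrap53, the neighbour on the opposite strand, whose protein is a factor for Cajal bodies and telomerase. Wrap53 has a start 109 bp from that of Trp53 and another 1110 bp from it, and the summit was 261 bp downstream of the latter. Peaks shared with another coding gene made up all the peaks of 24.6% of marked coding genes. Among the 9 genes here this was the case for Trp53 only, so its mark cannot be told apart from that of Wrap53.

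Trp73 carried a weak mark at its own upstream start and no called peak at its internal start. The RefSeq start sites of Trp73 lie 42702 bp apart, and an internal promoter of the gene is known to give a shorter protein that lacks the activation domain and antagonises p53. The peak over the upstream start was 1244 bp long (chromosome 4, 154139497 to 154140740) and held 77 tags, or 61.9 per kb (interval 48.8 to 77.4). Its fold enrichment of 12.3 was higher than that of the strongest peak at 5.68% of marked coding genes, although it was not the strongest peak counted for Trp73. The nearest peak to the internal start was 42.3 kb away. A second, stronger peak counted for Trp73 by the rule, with 285 tags over 2633 bp and a fold enrichment of 37.93. It began 997 bp beside the gene, just within the limit of 1 kb, and covered the start of Wrap73, a neighbouring WD repeat gene on the opposite strand, with its summit 130 bp downstream of that start. The pair of peaks was separated by 131 bp. With no window beside the gene, Trp73 kept only the weak peak.

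Trp63 spans 208 kb (chromosome 16, 25683763 to 25892088) and had no peak in it or within 1 kb. The nearest peak lay 110 kb away and held 43 tags with a fold enrichment of 6.40. Of the 990 coding genes over 200 kb long, 80.6% had a peak somewhere over the gene. A site below the p cutoff of 1e-05 is not listed, so this states only that no peak was called at this depth.

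The bases before the start sites of Trp73 differ in their content of CpG (C followed by G in the same strand), and they are shown because one start was marked and the other was not. Each run is the 250 bases before a start, 5′ to 3′ in the direction of transcription, from RefSeq (GRCm38.p6, the assembly that mm10 names), with CpG in capitals.
Trp73 upstream start, weak peak (chr4:154139876-154140125, minus strand): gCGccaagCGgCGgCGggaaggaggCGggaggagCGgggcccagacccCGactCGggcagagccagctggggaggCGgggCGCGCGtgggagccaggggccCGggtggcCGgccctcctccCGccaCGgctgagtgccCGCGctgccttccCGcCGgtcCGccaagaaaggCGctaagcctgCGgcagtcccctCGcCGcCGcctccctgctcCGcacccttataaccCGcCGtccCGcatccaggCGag
Trp73 internal start, no peak (chr4:154097174-154097423, minus strand): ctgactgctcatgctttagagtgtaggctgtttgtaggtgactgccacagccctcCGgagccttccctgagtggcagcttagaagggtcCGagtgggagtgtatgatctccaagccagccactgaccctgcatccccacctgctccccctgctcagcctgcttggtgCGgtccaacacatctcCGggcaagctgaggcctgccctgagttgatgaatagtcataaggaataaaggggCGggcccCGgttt
The upstream run holds 31 CpG and the internal run 6. Over all coding start sites, the runs before starts under a peak held a median of 17 CpG (quartiles 11 and 24), and those before other starts a median of 3 (quartiles 1 and 5). Of the 2933 starts with 25 or more CpG, 94.8% lay under a peak, with a median fold enrichment of 42.63. Among those under a peak, 2.05% had a fold enrichment as low as the 12.3 of Trp73. The upstream start of Trp73 was CpG-rich and marked, with a fold enrichment near the bottom of its class.

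Both inhibitors had a high fold enrichment, above that of 79.3% (Mdm2) and 79.9% (Mdm4) of marked coding genes. Mdm2 lay under a peak of 3536 bp with 847 tags (chromosome 10, 117708167 to 117711702). Its density of 240 tags per kb (interval 224 to 256) was the highest of the 10 genes, above that of 99.6% of marked coding genes, and its interval did not overlap that of the next gene, Sesn2. The fold enrichment was 47.34. The summit lay 243 bp downstream of the start, and the peak extended 2591 bp past the start and 944 bp before it. Over all coding starts under a peak, the medians were 199 bp for the summit, 1302 bp for the reach into the gene and 829 bp for the reach upstream.

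Mdm4, which binds p53 and blocks its activation domain, has listed start sites 5171 bp apart, and the peak lay at the inner one. This peak was 2247 bp long (chromosome 1, 133023785 to 133026031) with 382 tags, 170 tags per kb (interval 153 to 188) and a fold enrichment of 47.73, and its summit was 207 bp downstream of the inner start. Its density was above that of 70.0% of marked coding genes, and its width above that of 50.3%. The peak also lay on or within 1 kb of Gm29257 and Gm41953, neither of them protein-coding, so it is not a peak at Mdm4 alone. The outer start was 2172 bp from the nearest peak, which lay outside the gene. Among 2761 coding genes with more than 1 listed start, 29.4% had some but not all of them under a peak. The runs before the Mdm4 starts are shown in the same way.
Mdm4 inner start, under a peak (chr1:133025417-133025666, minus strand): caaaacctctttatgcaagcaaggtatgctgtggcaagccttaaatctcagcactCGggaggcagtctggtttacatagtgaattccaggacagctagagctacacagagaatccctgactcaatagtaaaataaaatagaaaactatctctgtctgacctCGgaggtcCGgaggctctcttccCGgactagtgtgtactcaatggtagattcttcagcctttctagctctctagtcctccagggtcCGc
Mdm4 outer start, no peak (chr1:133030588-133030837, minus strand): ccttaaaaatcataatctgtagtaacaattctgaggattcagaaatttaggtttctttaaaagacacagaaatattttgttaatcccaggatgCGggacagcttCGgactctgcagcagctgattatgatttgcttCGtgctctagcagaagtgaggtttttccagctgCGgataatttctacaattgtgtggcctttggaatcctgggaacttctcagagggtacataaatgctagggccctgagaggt
These hold 5 and 4 CpG, so the runs before the Mdm4 starts hardly differed in CpG where those before the Trp73 starts did. Bases after the starts were not counted. Of the 8036 coding starts with 5 or fewer CpG, 10.4% lay under a peak. Of these 832 starts, 74 (8.89%) lay under a peak with a fold enrichment at or above that of Mdm4.

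**Figure D2:**
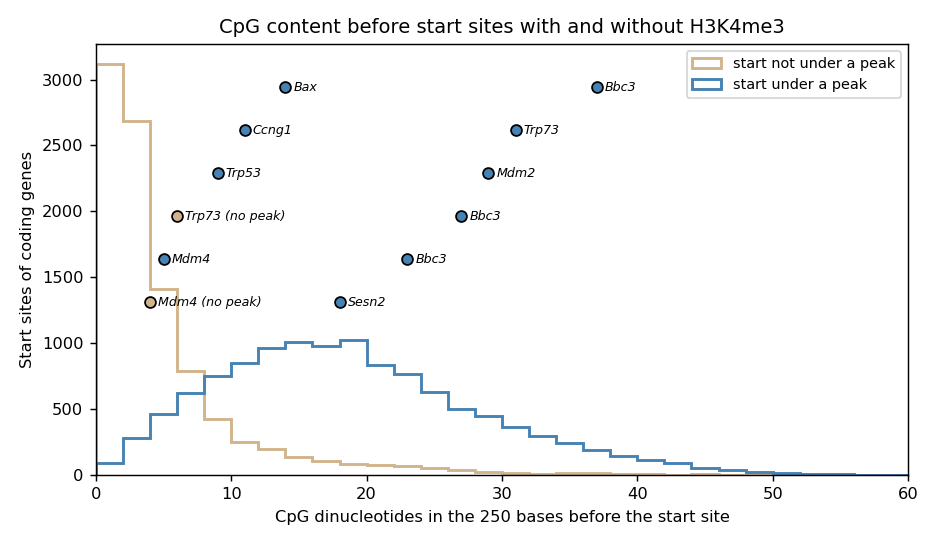
Number of coding start sites (vertical axis) by CpG dinucleotides in the 250 bases before the start (horizontal axis), for starts under a peak (blue) and not under a peak (tan). Dots mark the 12 listed starts of 8 of the genes at their CpG count, and their height only separates the names; the marked Mdm4 start sits at 5 CpG and the upstream Trp73 start at 31.

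The apoptosis genes ranged from a broad to a weak mark. Bbc3 encodes PUMA, a BH3-only protein that inactivates the survival members of the BCL2 family. It lay under a peak of 5542 bp with 1010 tags (chromosome 7, 16309114 to 16314655), the widest peak and the most tags among the 10 genes, wider than the mark at 97.1% of marked coding genes. The whole peak was inside the gene and covered its 3 listed starts, which lie within 848 bp. Its fold enrichment was 44.12 and its density 182 tags per kb (interval 171 to 194). From the first start the peak reached 5072 bp downstream and 469 bp upstream.

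Bax encodes the protein that forms pores in the mitochondrial outer membrane. Its start lay under a peak of 2521 bp with 386 tags (chromosome 7, 45465042 to 45467562), with 153 tags per kb (interval 138 to 169), a fold enrichment of 47.01 and the summit 187 bp downstream of the start. Another 2 peaks were counted for Bax because they fell within 1 kb of its other end. One, of 585 tags and a fold enrichment of 39.66, lay 826 bp beside Bax and covered the start of Ftl1, a ferritin gene. The other, of 22 tags and with the lowest fold enrichment of the 12 peaks (4.77), lay 255 bp beside Bax.

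Pmaip1 encodes NOXA, a BH3-only protein, and was the least marked of these 3 genes. Its peak was 1362 bp long (chromosome 18, 66457916 to 66459277) with 113 tags, 83.0 tags per kb (interval 68.4 to 99.7) and a fold enrichment of 20.97, which was higher than at 13.7% of marked coding genes. It covered an end of the gene, with 688 bp outside and 674 bp inside. The intervals of Pmaip1 and Bax did not overlap, so their densities differed by more than counting error. The nearest peak outside the limit of 1 kb was 87.9 kb away.

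Ccng1, which encodes cyclin G1, and Sesn2, which encodes a sestrin that restrains mTORC1 under stress, each had 1 peak at the start. At Ccng1 it was 2574 bp long (chromosome 11, 40753428 to 40756001) with 358 tags, 139 per kb (interval 125 to 154) and a fold enrichment of 40.80. At Sesn2 it was 2846 bp long (chromosome 4, 132507913 to 132510758) with 564 tags, 198 per kb (interval 182 to 215) and a fold enrichment of 46.39. Their intervals did not overlap. The summits lay 261 and 300 bp downstream of the starts, and at Sesn2 the peak reached 302 bp upstream against 2543 bp into the gene.

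**Figure D3:**
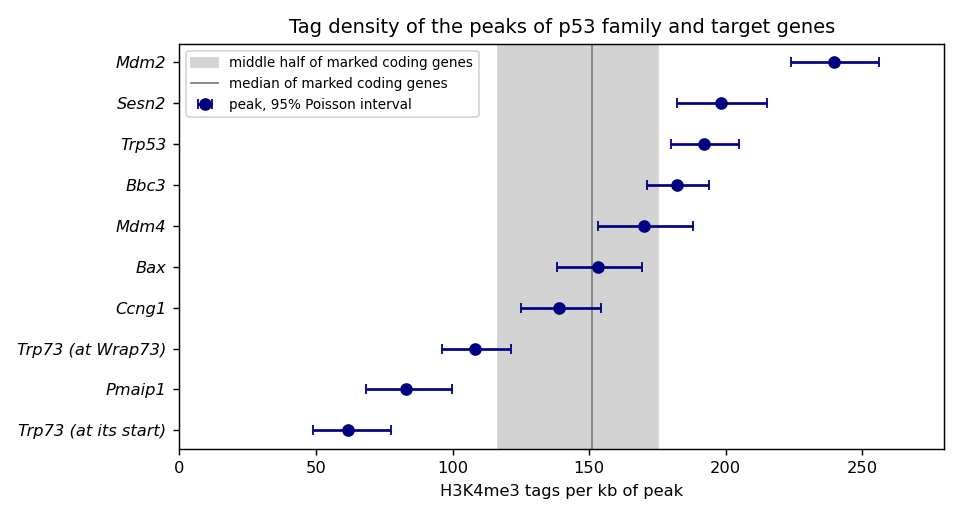
H3K4me3 tags per kb of peak (horizontal axis) for the strongest peak of each marked gene and for the weak peak at the Trp73 start, with exact 95% Poisson intervals as bars. The grey band spans the quartiles of the strongest peaks of all marked coding genes; Mdm2 at 240 stands apart, and Pmaip1 and both Trp73 entries lie left of the band.

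Ranked by tags per kb of the strongest peak, the order was Mdm2, Sesn2, Trp53, Bbc3, Mdm4, Bax, Ccng1, Trp73 and Pmaip1. Mdm2 was separate from Sesn2, and Ccng1 from Trp73, as their intervals did not overlap. From Sesn2 to Ccng1 each gene overlapped the next, and so did Trp73 and Pmaip1, so neighbours in these stretches were not separated by the intervals. Overlap does not show that the densities were equal. Genes further apart could be separated. The lower bounds of Sesn2 (182), Trp53 (180) and Bbc3 (171) lay above the upper bounds of Bax (169) and Ccng1 (154). The value of Trp73 here is that of the peak at Wrap73. The authors' score could not order the strongest genes, since 4 of the 9 strongest peaks (Trp53, Mdm2, Bbc3 and Sesn2) had the same score of 3100, as did 3926 peaks in the whole list. Densities are raw tags over the length the caller gave each peak, and are not corrected for the input.

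The peaks mostly lay from the start into the gene. The start table listed 12 starts for 8 of the genes (none for Trp63 or Pmaip1), and 10 of them lay under a peak, where 55.3% of all 21263 coding starts did. The 3 starts of Bbc3 share 1 peak and are not independent. At 8 of these 10 starts the peak reached further downstream than upstream, as it did at 76.6% of all coding starts under a peak. The exceptions were Trp53 and the upstream start of Trp73. The summit was downstream of 6 of the 10 starts and upstream of the start of Trp53, the upstream start of Trp73 and the 2 later starts of Bbc3. Over all coding starts under a peak, 21.9% had an upstream summit.

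**Figure D4:**
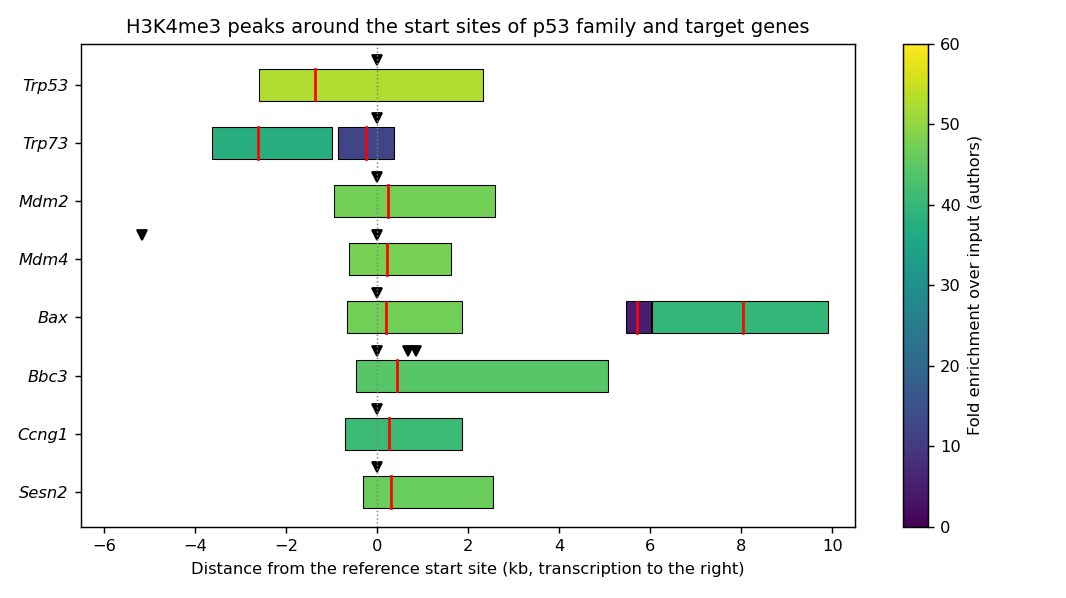
Peaks of 8 genes (bars) by distance in kb from a listed start under a peak, the most upstream one (horizontal axis, transcription to the right), coloured by the authors' fold enrichment, with summits as red lines and listed starts as triangles. Most peaks extend to the right of the start; that of Trp53 reaches 2.6 kb to the left, Trp73 has a weak peak at its start beside the one at Wrap73, and the outer Mdm4 start has none. The internal Trp73 start lies off the scale.

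The p53 half-site, the 10-base unit of the paired element that p53 binds, was searched in the same 250 bases. It reads the same on both strands and was taken in its consensus form with no mismatch. It was found before 4 of the 12 starts, those of Trp53, Mdm2, Bax and Ccng1, with 1 match each, and before 6.31% of all coding starts. The matching bases were GGACTTGCCC at Trp53, beginning 75 bases before the start, GAACTTGCCT at Mdm2 (186 bases), AGGCAAGCTT at Bax (201 bases) and GGGCAAGCCT at Ccng1 (185 bases). Bbc3 and Sesn2, also counted here as p53 targets, had no match before any listed start, and Pmaip1 had no listed start to search. For Mdm2, Bax and Ccng1, genes that p53 is known to activate, the runs are shown with the match in capitals.
Mdm2 (chr10:117710759-117711008, minus strand): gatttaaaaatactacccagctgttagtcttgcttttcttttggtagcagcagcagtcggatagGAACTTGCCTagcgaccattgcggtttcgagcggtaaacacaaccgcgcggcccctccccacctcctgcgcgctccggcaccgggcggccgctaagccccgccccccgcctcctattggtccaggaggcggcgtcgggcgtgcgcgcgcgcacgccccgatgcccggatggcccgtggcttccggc
Bax (chr7:45466899-45467148, minus strand): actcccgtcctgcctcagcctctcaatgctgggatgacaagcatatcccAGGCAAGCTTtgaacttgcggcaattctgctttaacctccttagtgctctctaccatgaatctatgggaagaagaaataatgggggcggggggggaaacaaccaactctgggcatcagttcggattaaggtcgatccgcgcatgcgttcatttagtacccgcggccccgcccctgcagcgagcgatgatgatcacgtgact
Ccng1 (chr11:40755287-40755536, minus strand): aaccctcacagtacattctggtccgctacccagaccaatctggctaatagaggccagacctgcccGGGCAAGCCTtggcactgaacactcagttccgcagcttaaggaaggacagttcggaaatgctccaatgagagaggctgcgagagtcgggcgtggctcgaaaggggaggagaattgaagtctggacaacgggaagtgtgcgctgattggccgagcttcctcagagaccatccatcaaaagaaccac
A match describes these letters only, and no binding of p53 was measured. Over all coding starts, 50.5% of those with a match lay under a peak and 55.6% of those without, so the mark was not more frequent where a match was found. The GC box (GGGCGG, either strand) was found before 7 of the 12 starts and 42.6% of all starts, and TATAAA (either strand) before that of Trp53 alone and 11.6% of all.

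Beyond the limit of 1 kb, peaks that touched no protein-coding gene plus 1 kb lay within 20 kb of 4 of the 10 genes, where 9.64% of coding genes had such a peak. Bbc3 had 3 of them, 7.84, 10.9 and 12.3 kb from the gene, with 158, 38 and 158 tags and fold enrichments of 24.83, 14.42 and 22.28. They touched no annotated gene of any kind, and 0.379% of marked coding genes had 3 or more such peaks. Mdm2 had 1 such peak, 10.9 kb away, with 23 tags and a fold enrichment of 8.15. The peaks nearest outside the limit belonged to Mdm4 and Sesn2. That of Mdm4 was 2172 bp away (fold enrichment 33.86), on or within 1 kb of a pair of lysine tRNA genes and a long non-coding RNA gene. That of Sesn2 was 3503 bp away (34.48), on or within 1 kb of an alanine tRNA gene. The limit of 20 kb was chosen after these values were seen.

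The rest of the p53 pathway was marked nearly throughout. Of 76 other genes of the pathway, listed by role, 73 had a peak, where 61.5% of all protein-coding genes had one. The list was chosen with earlier results of these data known. A counted peak need not cover a start. At Sfn and Casp8 the 1 listed start was not under a peak, and the Sfn peak lay 63 bp beside the gene. At Steap3, 1 of 4 listed starts was under a peak, and some of the genes had no listed start. Of the 71 that are protein-coding, 70 had a peak (98.6%). The median fold enrichment of their strongest peaks was 41.7 with a range of 11.14 to 60.03. Over all marked coding genes the median was 39.06. With only peaks that touch no other coding gene, the count fell from 73 to 56 of 76, while the share of all coding genes fell from 61.5% to 46.4%. All 8 kinases and damage sensors upstream of p53 had a peak, led by Chek1 (57.86), a checkpoint kinase, and Atm (48.46), the kinase that responds to double-strand breaks, whose peak is shared with Npat. All 15 partners and negative regulators had one, led by Wrap53 with the peak of Trp53 and by Ppp1r13l (52.07, shared with Cd3eap), which encodes the p53 inhibitor iASPP.

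The background for the count of each role is the 61.5% of all coding genes with a peak. Among the cell cycle arrest targets 9 of 10 had a peak, with the highest median of the roles (48.3). Ccng2, the relative of Ccng1, stood at 60.03 and Gadd45a, a growth arrest and damage gene, at 52.07, and the pseudogene Ptprv had no peak. Among the apoptosis targets 14 of 15 had a peak, and 3 of these lay below a fold enrichment of 20, where 12.9% of all marked coding genes did. Aen, an exonuclease gene, stood at 54.97 and Trp53inp1 at 47.01. Perp, a gene of cell adhesion in epithelia, had no peak, and the nearest one was 101 kb away. The low values, chosen after they were seen, were Steap3 (11.14), Tnfrsf10b (15.91), a death receptor gene, and Eda2r (16.63). All 6 DNA repair targets had a peak, led by Polk (47.01, shared with Cert1) and Ercc5 (36.89), as had all 10 metabolism and autophagy targets, led by Gls2 (46.87, shared with Spryd4), a glutaminase gene, and Tigar (46.29). All 8 BCL2 family and caspase genes had one, led by the survival gene Bcl2l1 (54.24) and by Cycs (50.63), the cytochrome c gene.

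**Figure D5:**
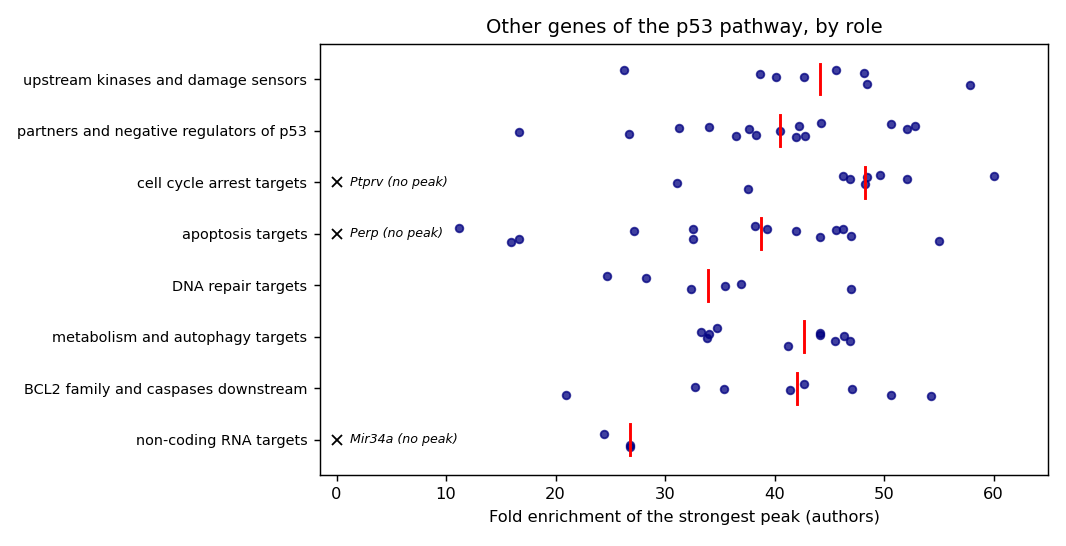
Authors' fold enrichment of the strongest peak (horizontal axis) of each of the 73 marked pathway genes, by role (vertical axis), with the median of a role as a red line. Crosses at the left edge mark Ptprv, Perp and Mir34a, which had no peak and so no fold enrichment; the values run from 11.14 to 60.03.

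Of the non-coding targets, the long non-coding RNA gene Trp53cor1 had a peak (24.45), and the microRNA genes of the miR-34 family differed. Mir34b and Mir34c, which are neighbours, lay at the same peak of 127 tags with a fold enrichment of 26.76, shared with ends of Hoatz and Btg4. Mir34a had no peak, and the nearest was 17.9 kb away. A microRNA gene in the table is the hairpin alone, so a start of its longer primary transcript outside the window is not counted. Their mature products are shown, since they share the seed (bases 2 to 8, in capitals, RefSeq GRCm38.p6) while the loci differ in the mark.
mmu-miR-34a-5p (chr4:150068473-150068494, plus strand): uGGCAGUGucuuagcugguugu
mmu-miR-34b-5p (chr9:51103610-51103632, minus strand): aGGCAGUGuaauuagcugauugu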

How the data were processed

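One H3K4me3 library of adult mouse neural progenitor cells was analysed as the peak list its authors deposited; the input enters as the caller's background. The caller was MACS 1.4.2, per the file header (p cutoff 1e-05, at most 1 tag per position, larger library scaled towards the smaller); the submitters' processing notes name mm10 and MACS2 2.1.0. The name of the aligner was not given in the sources used here. The deposited columns are tag counts (not normalized), fold enrichment over input (a ratio), a score of 10 times the negative log10 p, the false discovery rate in percent, and length and summit in bp. Positions were joined to RefSeq tables of GRCm38.p6 on chromosomes 1 to 19, X and Y. The gene table gives gene ends without exons, so exonic, intronic and UTR positions were not assigned, and the start table gives strands and start sites for 17492 coding genes. Peaks 1 kb or less apart were joined for widths, and a gene's width is that of the widest joined region at it. Percentages of marked coding genes lying below a gene compare strongest peaks, or these widths. The exception is the weak peak at the Trp73 start, which was set against the strongest peaks of the genes. Poisson 95% intervals span counting error alone and take the tags as independent. The reads carry no molecular identifiers, so beyond the limit of 1 tag per position PCR copies could not be told apart. The Clopper-Pearson 95% interval treats the 10 genes as random draws, which they were not. The overlap code was tested on simulated data. Named are the 10 genes and, in each pathway role, the 2 highest fold enrichments and every gene without a peak. Sfn, Casp8, Steap3, Tnfrsf10b, Eda2r and Trp53cor1 are named outside this rule. The genes, lists and rules were chosen with earlier results of these data known. Tools were Python 3.11.15, pandas 2.3.3 and scipy 1.17.1.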

Additional observations from a re-analysis of the deposited data

How the results depend on the processing

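The alternatives changed the window, the summit rule, the p, fold and false discovery thresholds, shared peaks, the choice of peak and the joining gap; those for start sites, and those for tag densities other than the choice of peak, were chosen after the data were seen. Across these settings, 46.4% to 64.1% of all coding genes had a peak. The number of the genes followed here with a peak was 8 or 9 of 10. It was 8 with the summit in the window and with only peaks at no other coding gene, and Trp53 was the gene lost each time, its summit lying 360 bp beyond the window. Trp63 gained no peak with 5 kb either side. The median fold enrichment ranged from 44.1 to 46.4 and the median width from 2548 to 3536 bp. The median width was lowest with only peaks at no other coding gene. In the main setting the width counted for Bax (4443 bp) was that of the joined peaks beside its other end, at Ftl1. That of Trp73 (4008 bp) included the peak at Wrap73. Pathway genes with a peak numbered 56 to 74 of 76. Of the 12 starts, 9 or 10 lay under a peak, where 40.5% to 56.6% of all coding starts did. Among tag densities only that of Trp73 moved beyond counting error, from 108 to 61.9 per kb, in 3 settings (no window, the summit rule, peaks at no other coding gene). The limit of 1% on the false discovery rate removed no peak, as the highest listed value was 0.32%. Depth limits the weakest calls: the smallest listed peak held 13 tags. No paired analysis was possible because there is 1 library of each kind.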
